A study of Homo sapiens with 24 samples.

Results

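The 9 genes of MHC class I antigen presentation described here were chosen by symbol from the 15862 genes of the deposited expression table, and 9 of 9 symbols were found. They are HLA-B, HLA-C and HLA-E (class I heavy chains), B2M (their shared light chain), TAP1 and TAP2 (the peptide transporter), TAPBP (tapasin), ERAP1 (a peptide-trimming enzyme) and NLRC5 (a transactivator of class I genes). RNA sequencing covered 24 libraries of LOUCY and JURKAT, established human T-cell acute lymphoblastic leukaemia lines, each a single line. LOUCY stands for early T-cell precursor leukaemia and JURKAT for a more mature form. The 5 groups were LOUCY given 250 nM JQ1 for 24 h (n = 4), LOUCY given 500 nM I-BET151 for 24 h (n = 4), LOUCY given the vehicle, 0.05% DMSO, for 24 h (n = 4), untreated LOUCY (n = 6) and untreated JURKAT (n = 6). JQ1 and I-BET151 are BET inhibitors, which displace BET proteins from acetylated histones. All groups were grown in RPMI-1640 with 10% FCS, and each was split evenly over 2 experiments. The labels do not say whether replicates of an experiment were separate cultures, so p-values measure the spread between libraries, part of which may be technical.

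MHC class I molecules carry peptides from inside the cell to its surface, where cytotoxic T cells read them. Proteasomes cut proteins into peptides, TAP1 and TAP2 pump these into the endoplasmic reticulum, ERAP1 trims them, and tapasin helps load them onto a heavy chain bound to beta-2-microglobulin. NLRC5 acts at class I promoters together with the RFX, CREB/ATF and NF-Y factors, and interferon-responsive factors and NF-kappaB act there too. Leukaemic cells can escape T cells by lowering class I, while cells with little class I become targets of natural killer cells, and HLA-E is read by an inhibitory receptor of those cells.

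Promoter sequences are shown for both classical heavy chains, for B2M and for TAPBP, because these windows carry boxes of the factors named above. Each is the RefSeq GRCh38.p14 window from 250 bases before to 50 after the gene start, read along the gene's strand. Capitals mark matches on either strand to CCAAT (the NF-Y box), TGACG (the core of the CREB/ATF site), an interferon-response core (GAAA, 2 free bases and GAAA) or 1 form of the NF-kappaB site (in HLA-B, the first run in capitals). HLA-B is chr6:31357130-31357429 (minus strand), HLA-C chr6:31272043-31272342 (minus strand), B2M chr15:44711267-44711566 (plus strand) and TAPBP chr6:33314029-33314328 (minus strand).
HLA-B: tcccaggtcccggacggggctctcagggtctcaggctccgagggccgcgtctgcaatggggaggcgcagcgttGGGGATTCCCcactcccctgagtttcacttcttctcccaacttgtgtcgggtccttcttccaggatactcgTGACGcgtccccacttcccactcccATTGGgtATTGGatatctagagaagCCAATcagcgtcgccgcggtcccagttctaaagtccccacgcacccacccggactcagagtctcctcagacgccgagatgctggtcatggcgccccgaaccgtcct
HLA-C: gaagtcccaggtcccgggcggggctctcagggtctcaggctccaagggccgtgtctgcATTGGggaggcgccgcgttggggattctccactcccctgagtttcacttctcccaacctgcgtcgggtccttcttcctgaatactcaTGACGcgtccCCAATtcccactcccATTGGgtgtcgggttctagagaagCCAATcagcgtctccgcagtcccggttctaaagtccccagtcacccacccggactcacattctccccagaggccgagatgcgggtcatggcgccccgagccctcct
B2M: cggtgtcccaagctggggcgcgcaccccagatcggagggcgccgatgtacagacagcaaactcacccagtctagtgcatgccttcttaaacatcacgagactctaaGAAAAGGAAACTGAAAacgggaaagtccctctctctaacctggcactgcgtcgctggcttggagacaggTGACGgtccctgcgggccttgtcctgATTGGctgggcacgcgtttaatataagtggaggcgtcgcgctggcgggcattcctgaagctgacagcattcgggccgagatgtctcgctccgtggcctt
TAPBP: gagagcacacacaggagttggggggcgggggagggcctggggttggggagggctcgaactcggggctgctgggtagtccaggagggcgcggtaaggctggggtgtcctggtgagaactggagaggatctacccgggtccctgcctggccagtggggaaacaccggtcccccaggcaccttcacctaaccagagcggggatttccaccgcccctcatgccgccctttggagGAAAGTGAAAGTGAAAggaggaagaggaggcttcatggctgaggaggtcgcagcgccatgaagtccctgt

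Distances below run from the first base of a match back to the gene start. HLA-B held CCAAT at 81, 74 and 56 bases, TGACG at 106 and the NF-kappaB form at 177. HLA-C held CCAAT at 192, 95, 80 and 56 bases and TGACG at 105, and B2M held CCAAT at 49 and TGACG at 75. The interferon-response core overlapped itself in B2M, at 144 and 138 bases, and in TAPBP, at 20 and 14. TAPBP held none of the other 3 motifs in this window. RefSeq promoter entries were found for 7 of the 9 genes, in 9 windows of 300 bases, since TAP1 and ERAP1 have a pair each. The source used here held no entry for HLA-E and NLRC5. Across the 7 genes, CCAAT matched in 5, TGACG in 4, the interferon-response core in 5 and the NF-kappaB form in 1. Of 35116 RefSeq promoter windows of that length, 34.6% held CCAAT, 24.6% TGACG, 3.57% the interferon-response core and 0.0769% the NF-kappaB form. These are letter matches, not binding sites.

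Depth ran from 4381134 to 7074198 recovered reads per library, with 15342 to 15712 genes detected. Slopes of expression on gene GC content were taken after subtracting each gene's group mean, so each is relative to the library's own group. In 3 libraries this slope was steeper downward than in the other 21, at -0.313 log2 units per 10 percentage points in I-BET151 experiment 2 replicate 1, -0.281 in DMSO experiment 2 replicate 1 and -0.227 in untreated LOUCY experiment 2 replicate 2, against -0.125 to 0.155. Of the 9 genes, 8 were lowest in that I-BET151 library among its group, 6 in that DMSO library and 6 in that untreated library. The share of all genes lowest in these libraries is not given here, so the counts show nothing particular to the 9 genes. Log2 differences of the genes were also computed without these libraries. With them left out, 3 of the 8 genes tested were higher and 3 lower for JQ1 against DMSO at a limma adjusted p under 0.05, against 15.1% and 21.2% of all 11304 genes. For I-BET151 against DMSO 3 were higher and 3 lower, against 11.8% and 18% of all genes, and for LOUCY against JURKAT 7 were higher and 0 lower, against 35.2% and 37.5% of 11911 genes. Of 7 T-lineage markers, 5 reached 1 RPKM in every LOUCY library and 7 in every JURKAT library, with CD2 and CD5 the low ones in LOUCY. Of the monocyte and macrophage markers only 1 of 4 was in the table (CSF1R), of the fibroblast markers 3 of 3 and of the epithelial markers 2 of 3. Those present did not reach 1 RPKM in every library of a group, and of 4 B-cell markers only CD79A did, which T-ALL can carry. The line marks TAL1, CD1B and MYC summed to at most 1.07 RPKM in LOUCY libraries and to 292 to 378 RPKM in JURKAT libraries.

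Levels are the authors' RPKM, reads scaled to gene length and library size, and 6 of the 9 genes lie in the MHC region of chromosome 6. Their RPKM values rest on gene lengths far above the annotated ones. The length implied by each gene's RPKM and recovered reads was 9360 bases for HLA-B, against 1586 bases of exon in GENCODE v29, a ratio of 5.9. The ratio was 7.07 for HLA-C, 7.12 for HLA-E, 8.46 for TAP1, 7.94 for TAP2 and 4.84 for TAPBP. B2M on chromosome 15, at 0.823, ERAP1 on chromosome 5, at 1.02, and NLRC5 on chromosome 16, at 0.971, lay near the median of 0.986 over 14850 genes. The 131 genes of the table starting in the MHC region of chromosome 6, between ZBED9 (28570535) and ZBTB9 (33454579) in GENCODE v29, had a median ratio of 6.45, against 0.985 for the other 14719 genes. If the recovered reads of the chromosome 6 genes are complete, their deposited RPKM is low by these factors relative to the other 3 genes. Whether reads matching several places were lost is not given, so the factors, and the ratios per GENCODE length below, rest on that assumption. Each gene's own comparison between libraries keeps its length, but the tests used log2(RPKM + 1), where the added 1 shrinks differences of lowered values. With GENCODE gene lengths, a setting chosen after seeing the data, LOUCY against JURKAT gave 1.29 for TAP1, 2.19 for HLA-E and 1.88 for TAPBP. The log2 differences reported below are 1.01, 1.95 and 1.70, and that of B2M was 2.10 in both settings. The sources used here do not describe how the alternate MHC haplotypes of hg38 were handled, and their part was not tested.

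**Figure D1:**
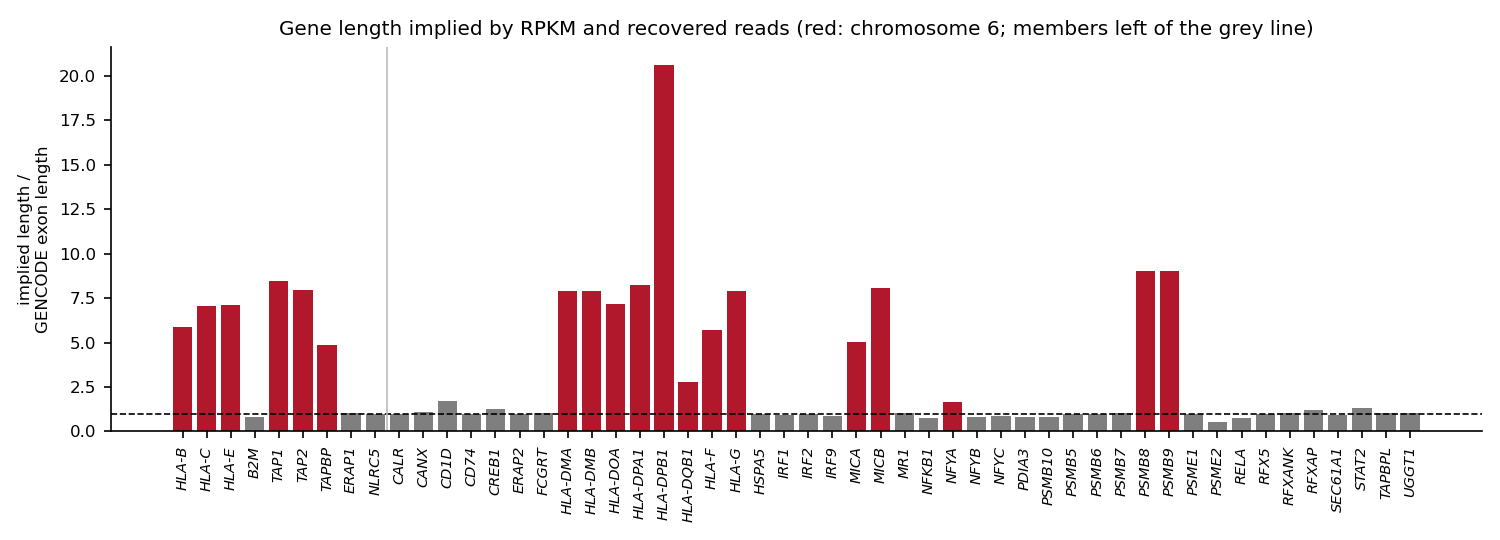
Ratio of the gene length implied by the deposited RPKM to the GENCODE v29 exon length (vertical axis) for the 9 genes, left of the grey line, and for the other pathway genes of the table. Red bars are genes on chromosome 6, grey bars genes elsewhere, and the dashed line is 1. HLA-B, HLA-C, HLA-E, TAP1, TAP2 and TAPBP stand at 4.84 to 8.46, against 0.823 to 1.02 for B2M, ERAP1 and NLRC5.

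The untreated lines were compared to ask how far class I presentation differs between LOUCY and JURKAT at rest. HLA-B, HLA-C, HLA-E, B2M, TAP1, TAPBP and NLRC5 were all higher in LOUCY, with HLA-B 15.5-fold higher and NLRC5 6.56-fold, while ERAP1 did not differ beyond its spread. These folds are on the log2(RPKM + 1) scale, which understates changes of low genes. Of the 8 genes that passed the filter (1 RPKM in at least 4 libraries of the fit), 7 were higher and 0 lower at a limma adjusted p under 0.05, and ERAP1 was the only one not called. Over all 11978 genes tested, 35.5% were called higher and 37.5% lower. The genes' median log2 difference was 2.02, against -0.02 over all genes. Ranges that do not overlap are described below gene by gene, and the share of all genes with such ranges is not given here.

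HLA-B (chromosome 6, 31353875 to 31357179), a classical heavy chain, ran from 99.9 to 124 RPKM with a median of 111 in untreated LOUCY, and from 5.19 to 7.11 RPKM with a median of 6.19 in JURKAT. No library of either line came near the other line's range. The log2 difference was 3.95 (SE 0.08, limma adjusted p = 2.17e-15). HLA-C (chromosome 6, 31268749 to 31272092), the other classical chain here, ran from 42.8 to 54.1 RPKM in untreated LOUCY, median 48.1, and from 8.67 to 11.6 in JURKAT, median 10.5. Its groups did not overlap either, with a log2 difference of 2.12 (SE 0.09, limma adjusted p = 5.75e-12). HLA-B was thus the more abundant chain in LOUCY and HLA-C in JURKAT. Per GENCODE length, the median ratio of HLA-B to HLA-C was 1.92 in untreated LOUCY libraries and 0.508 in JURKAT libraries, with ranges of 1.88 to 1.95 and 0.425 to 0.594. HLA genes are highly polymorphic and closely related, and the sources used here do not give how reads matching several of them were counted. Levels of HLA-B and HLA-C are uncertain between lines for that reason, and its part was not tested.

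HLA-E (chromosome 6, 30489509 to 30494194), the non-classical chain, ran from 15.1 to 17.3 RPKM in untreated LOUCY and from 3.002 to 3.93 in JURKAT, with medians of 15.9 and 3.47. All 6 LOUCY libraries lay above all 6 JURKAT libraries, by 1.95 on the log2 scale (SE 0.07, limma adjusted p = 2.13e-12). B2M (chromosome 15, 44711517 to 44718145) was by far the highest of the 9 genes. It ran from 3008 to 4620 RPKM, median 3378, in untreated LOUCY and from 776 to 894 RPKM, median 828, in JURKAT, ranking 6th and 56th of 15862 genes by mean RPKM. The log2 difference between lines was 2.10 (SE 0.09, limma adjusted p = 5.82e-12), close in size to that of HLA-C and HLA-E. Per GENCODE length, B2M stood at a median of 2.42 times the summed HLA-B, HLA-C and HLA-E in untreated LOUCY and 5.15 times in JURKAT, a sum of 3 heavy chains and not of all of them.

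TAP1 (chromosome 6, 32845209 to 32853704), one subunit of the transporter, ran from 3.53 to 6.13 RPKM in untreated LOUCY, median 5.37, and from 1.76 to 2.21 in JURKAT, median 2.02. The log2 difference of 1.01 (SE 0.11, limma adjusted p = 5.95e-07) was the smallest of the 7 called. TAP2 (chromosome 6, 32821831 to 32838739), the other subunit, ran from 0.497 to 0.745 RPKM, median 0.659, in untreated LOUCY and from 0.45 to 0.52 RPKM, median 0.512, in JURKAT, with one LOUCY library inside the JURKAT range. It rested on 103 to 218 reads per library over the 24 libraries, yet fell under the filter on low values because of its long implied length. With no filter its log2 difference came to 0.13 (SE 0.06, limma adjusted p = 0.0678), and with GENCODE gene lengths, a setting chosen after seeing the data, 0.29 (SE 0.09, limma adjusted p = 0.0112). Per GENCODE length, TAP1 stood at a median of 8.72 times TAP2 in untreated LOUCY and 4.3 times in JURKAT.

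TAPBP (chromosome 6, 33299694 to 33314078), which bridges the transporter and the heavy chain, ran from 11.5 to 17.0 RPKM in untreated LOUCY and from 3.19 to 4.83 in JURKAT, with medians of 16.0 and 3.88. The groups did not overlap, and the log2 difference was 1.70 (SE 0.10, limma adjusted p = 3.16e-10). ERAP1 (chromosome 5, 96760813 to 96935854) ran from 7.68 to 11.4 RPKM in untreated LOUCY, median 9.90, and from 8.41 to 11.0 in JURKAT, median 9.52. Its groups overlapped almost entirely, with a log2 difference of 0.01 (95% interval -0.18 to 0.21, limma adjusted p = 0.92). NLRC5 (chromosome 16, 56989557 to 57083520) ran from 12.5 to 17.8 RPKM, median 17.3, in untreated LOUCY and from 1.22 to 1.95 RPKM, median 1.59, in JURKAT. The regulator was thus also apart in every library, by 2.71 on the log2 scale (SE 0.10, limma adjusted p = 2.26e-12). Summed HLA-B, HLA-C and HLA-E stood at a median of 10.7 times NLRC5 in untreated LOUCY and 12.2 times in JURKAT, in deposited RPKM, with overlapping ranges of 8.97 to 12.8 and 11.1 to 16.3.

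**Figure D2:**
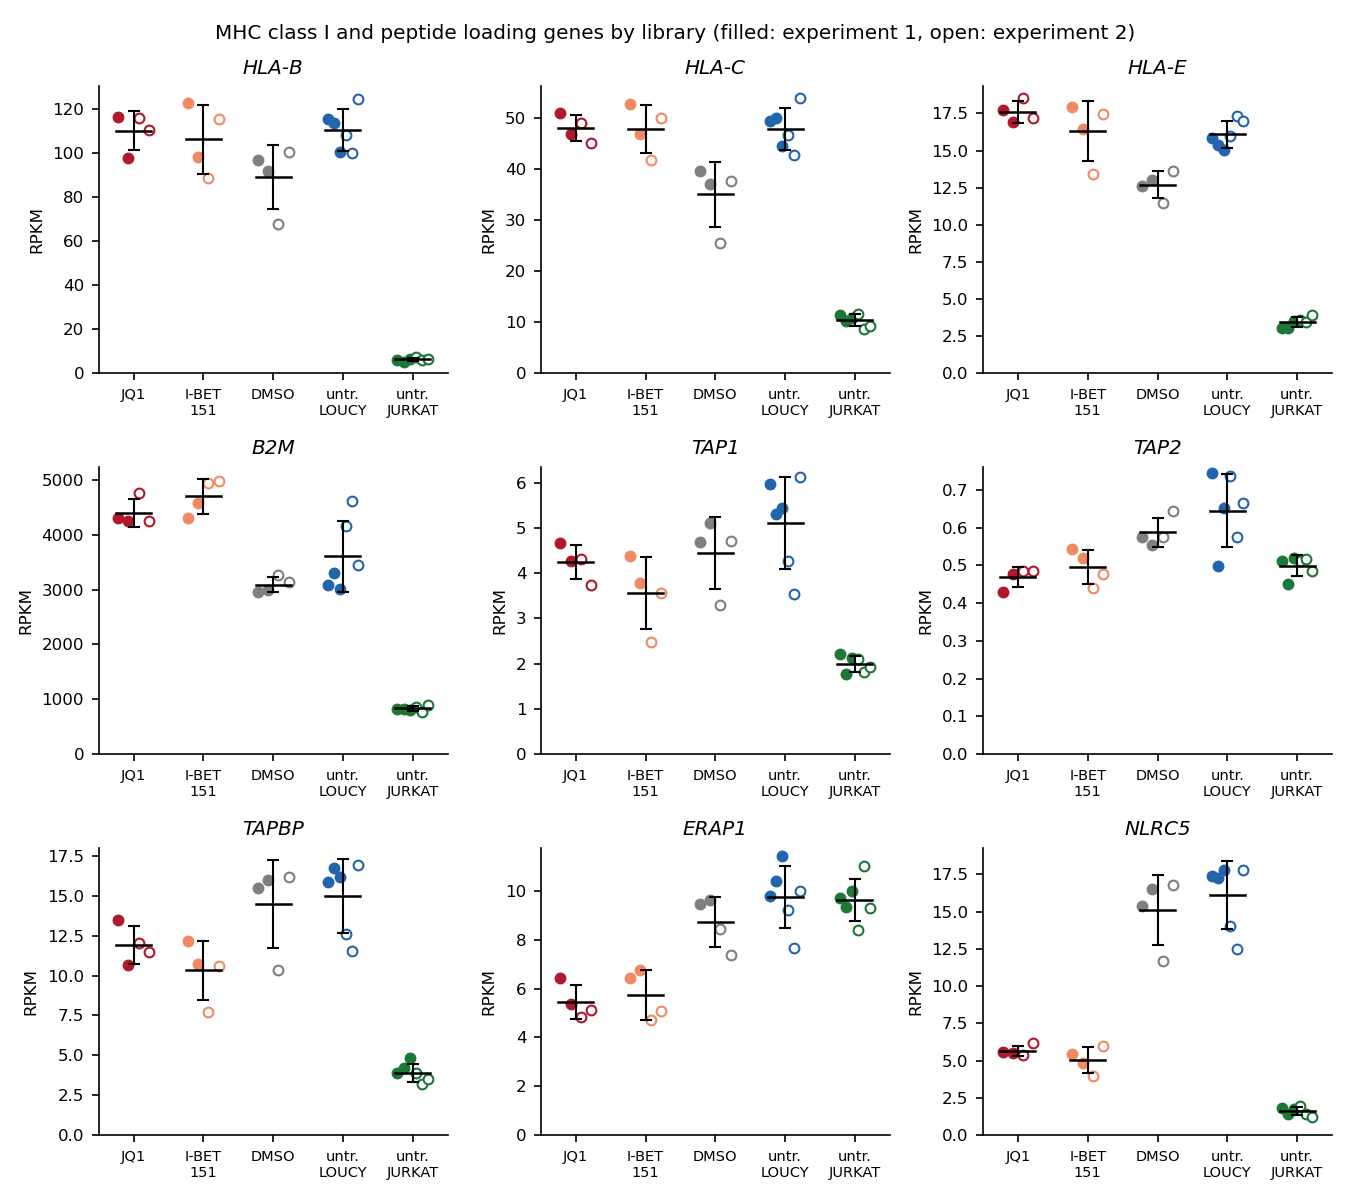
RPKM (vertical axes, from 0) of the 9 genes in each library, in LOUCY given JQ1, I-BET151 or DMSO (n = 4 each), untreated LOUCY (n = 6) and untreated JURKAT (n = 6). Points are libraries, filled for experiment 1 and open for experiment 2, and bars give mean ± SD. NLRC5 stands at 5.65 ± 0.347 RPKM under JQ1 and 15.1 ± 2.35 under DMSO, and B2M at 4396 ± 250.4 and 3091 ± 136.5 RPKM.

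JQ1 was compared with DMSO to ask what BET inhibition does to these genes in LOUCY. Relative to DMSO, HLA-C, HLA-E and B2M rose and ERAP1 and NLRC5 fell, while HLA-B, TAP1 and TAPBP were not called. The genes that rose had their lowest mean LOUCY levels in DMSO. HLA-C averaged 48.0 RPKM under JQ1, 35.1 in DMSO and 47.9 in untreated LOUCY. Of the 8 genes tested, 3 were higher, 2 were lower and 3 were not called. Over all 11411 genes tested, 10.1% were called higher and 15.9% lower. The genes' median log2 difference was 0.13, against -0.01 over all genes. Values below list experiment 1 before experiment 2.

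NLRC5 stood at 5.58, 5.51, 5.36 and 6.15 RPKM in JQ1 libraries, and at 15.4, 16.5, 11.7 and 16.8 RPKM in DMSO libraries. Every JQ1 library was below every DMSO library, and its level under JQ1 still exceeded that of every JURKAT library. The log2 difference was -1.26 (SE 0.14, limma adjusted p = 1.66e-06). ERAP1 stood at 6.43, 5.39, 4.84 and 5.11 RPKM in JQ1 libraries, against 9.47, 9.63, 8.45 and 7.38 in DMSO libraries. The groups did not overlap, with a log2 difference of -0.59 (SE 0.10, limma adjusted p = 0.000291).

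B2M reached 4317, 4249, 4769 and 4249.8 RPKM in JQ1 libraries, against 2965, 2997, 3261 and 3140 in DMSO libraries. All 4 JQ1 libraries were higher, by 0.51 on the log2 scale (SE 0.10, limma adjusted p = 0.0006). HLA-C was at 51.0, 46.9, 49.0 and 45.1 RPKM in JQ1 libraries, and at 39.7, 37.2, 25.5 and 37.8 RPKM in DMSO libraries. Its groups were apart as well, with the lowest DMSO value in the library with a steep GC slope, and the log2 difference was 0.46 (SE 0.12, limma adjusted p = 0.00774), or 0.32 (SE 0.08, limma adjusted p = 0.00569) without the 3 libraries of steep slope. HLA-E was at 17.7, 16.9, 18.6 and 17.2 RPKM in JQ1 libraries, and at 12.6, 13.0, 11.5 and 13.7 RPKM in DMSO libraries. Both groups were tight and apart, with a log2 difference of 0.45 (SE 0.10, limma adjusted p = 0.00305).

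HLA-B stood at 116, 97.4, 116 and 110.2 RPKM in JQ1 libraries, and at 96.5, 91.5, 67.8 and 100.1 RPKM in DMSO libraries. The ranges overlapped, because one DMSO library exceeded the lowest JQ1 library, and the log2 difference of 0.31 (SE 0.13, limma adjusted p = 0.0819) did not pass. Without the 3 libraries of steep slope it was 0.18 (SE 0.09, limma adjusted p = 0.14). It passed without DMSO experiment 2 replicate 2, at a limma adjusted p of 0.0446, and with the GC trend removed, a setting chosen after seeing the data, at 0.34 (SE 0.07, limma adjusted p = 0.00139). TAPBP stood at 13.5, 10.6, 12.04 and 11.5 RPKM in JQ1 libraries, against 15.5, 16.0, 10.4 and 16.2 in DMSO libraries. Of the DMSO values, 3 lay above all JQ1 values and 1, from the library with a steep GC slope, below them, and the log2 difference was -0.25 (SE 0.14, limma adjusted p = 0.225). With the 3 libraries of steep GC slope left out, it moved to -0.38 (SE 0.11, limma adjusted p = 0.0112). TAP1 averaged 4.24 ± 0.383 RPKM under JQ1 and 4.45 ± 0.795 RPKM under DMSO (SD, n = 4 each), with a 95% interval of the log2 difference from -0.34 to 0.25. TAP2, with no filter, had a log2 difference of -0.11 (SE 0.07, limma adjusted p = 0.311).

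I-BET151 was compared with DMSO for the same question with a second BET inhibitor; both comparisons share the 4 DMSO libraries. HLA-C, HLA-E and B2M rose and TAPBP, ERAP1 and NLRC5 fell. Of the 8 genes tested, 3 were higher and 3 lower, against 10.3% and 15.9% of all 11411 genes. The median log2 difference of the genes was -0.01 and that of all genes was 0.00.

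NLRC5 stood at 5.41, 4.83, 3.97 and 6.01 RPKM in I-BET151 libraries, all below the DMSO range of 11.7 to 16.8 RPKM. That gave a log2 difference of -1.41 (SE 0.14, limma adjusted p = 4.52e-07). ERAP1, at 6.46, 6.78, 4.70 and 5.07 RPKM in I-BET151 libraries against 7.38 to 9.63 in DMSO libraries, fell by 0.53 (SE 0.10, limma adjusted p = 0.000829) on that scale. B2M, at 4303, 4573, 4952 and 4979 RPKM in I-BET151 libraries against 2965 to 3261 in DMSO libraries, rose by 0.60 (SE 0.10, limma adjusted p = 0.000121). The groups of NLRC5, ERAP1 and B2M did not overlap, a description without the share of all genes apart in this way.

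HLA-C stood at 52.9, 46.9, 41.8 and 49.97 RPKM in I-BET151 libraries, against 25.5 to 39.7 in DMSO libraries, with a log2 difference of 0.45 (SE 0.12, limma adjusted p = 0.00887), or 0.38 (SE 0.09, limma adjusted p = 0.00361) without those 3 libraries. HLA-E stood at 17.9, 16.4, 13.4 and 17.4 RPKM in I-BET151 libraries, against 11.5 to 13.7 in DMSO libraries, and its lowest I-BET151 library lay inside the DMSO range. Here the log2 difference came to 0.33 (SE 0.10, limma adjusted p = 0.0203). That call was lost, at limma adjusted p of 0.0504 to 0.0719, without any one of I-BET151 experiment 1 replicate 1, I-BET151 experiment 1 replicate 2, I-BET151 experiment 2 replicate 2 and DMSO experiment 2 replicate 1. Without the 3 libraries of steep GC slope the HLA-E difference was 0.38 (SE 0.08, limma adjusted p = 0.00224). TAPBP stood at 12.2, 10.8, 7.73 and 10.6 RPKM in I-BET151 libraries and 10.4 to 16.2 in DMSO libraries, overlapping through the DMSO library of steep GC slope. For this gene the log2 difference came to -0.45 (SE 0.14, limma adjusted p = 0.0261). It was not called, at limma adjusted p of 0.0542 to 0.0987, without any one of DMSO experiment 1 replicate 1, DMSO experiment 1 replicate 2, DMSO experiment 2 replicate 2, I-BET151 experiment 1 replicate 2 and I-BET151 experiment 2 replicate 1. With the 3 libraries of steep GC slope left out, the TAPBP difference was -0.47 (SE 0.11, limma adjusted p = 0.00499). HLA-B averaged 106 ± 15.6 RPKM under I-BET151 and 89.0 ± 14.6 under DMSO, a log2 difference of 0.25 (SE 0.13, limma adjusted p = 0.159). It was 0.21 (SE 0.10, limma adjusted p = 0.106) without the 3 libraries of steep GC slope, 0.13 (SE 0.12, limma adjusted p = 0.45) without DMSO experiment 2 replicate 1 alone, and 0.35 (SE 0.07, limma adjusted p = 0.00109) with the GC trend removed. TAP1 averaged 3.55 ± 0.794 RPKM under I-BET151 and 4.45 ± 0.795 under DMSO, with a log2 difference of -0.27 (SE 0.14, limma adjusted p = 0.179).

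**Figure D3:**
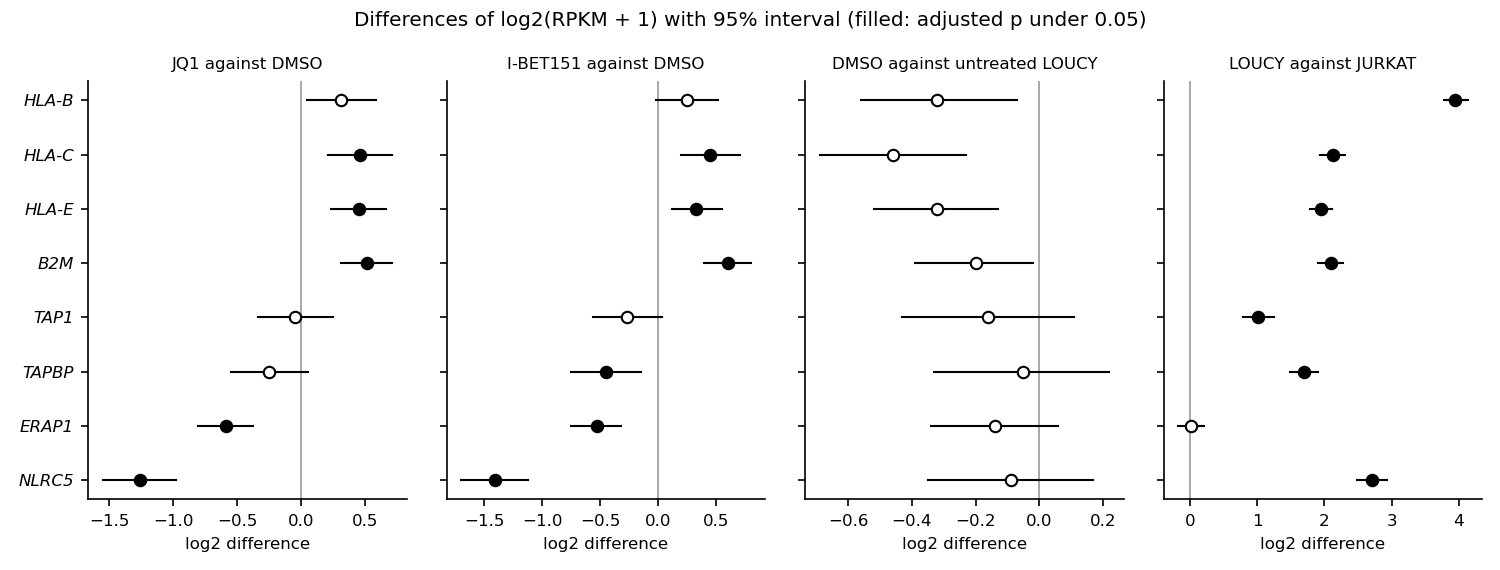
Differences of log2(RPKM + 1) (horizontal axes) for the 8 genes that passed the filter, with 95% intervals as lines, in JQ1 against DMSO, I-BET151 against DMSO, DMSO against untreated LOUCY and untreated LOUCY against JURKAT. Filled points have a limma adjusted p under 0.05. Under both inhibitors HLA-C, HLA-E and B2M lie above 0 and ERAP1 and NLRC5 below it, from 0.60 for B2M to -1.41 for NLRC5 with I-BET151.

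The ratio of heavy chains to their regulator stood apart with both inhibitors, as a description with no test. In deposited RPKM, summed HLA-B, HLA-C and HLA-E stood at 28.1 to 34.2 times NLRC5 in JQ1 libraries. The ratio was 30.4 to 36.2 in I-BET151 libraries and 8.57 to 9.68 in DMSO libraries. Neither inhibitor's range met that of DMSO or of either untreated line. The ratio of HLA-B to HLA-C per GENCODE length ran from 1.73 to 2.04 under JQ1, from 1.75 to 1.94 under I-BET151 and from 2.03 to 2.22 under DMSO, with medians of 1.94, 1.84 and 2.13. The I-BET151 range lay below that of DMSO and the JQ1 range met its lower end, and all 3 were far above JURKAT. Also per GENCODE length, B2M stood at medians of 3.29, 3.61 and 2.73 times the summed chains in JQ1, I-BET151 and DMSO libraries, with overlapping ranges. TAP1 over TAP2 had medians of 9.51 under JQ1, 7.87 under I-BET151 and 8.25 under DMSO on the same scale. In bulk libraries fewer cells of a state and less RNA per cell cannot be told apart, and RPKM gives relative amounts. The summed T-lineage markers moved in the same libraries, at 1003 to 1060 RPKM under JQ1, 795 to 1145 under I-BET151 and 1556 to 1962 under DMSO, and their part in these results was not tested.

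**Figure D4:**
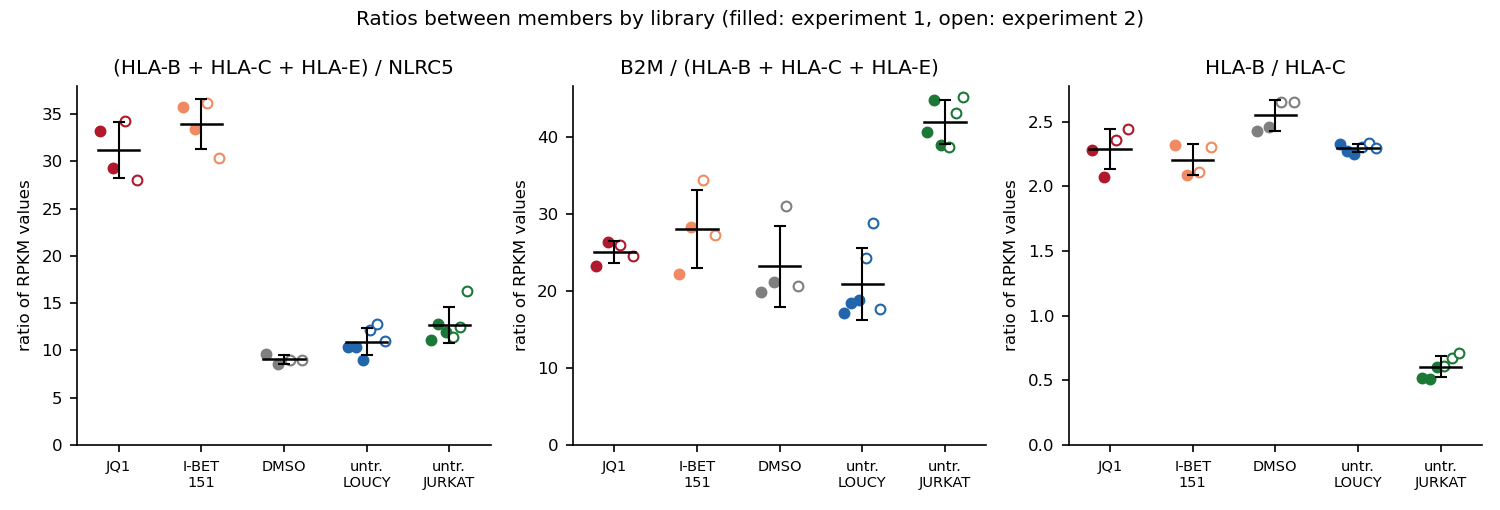
Ratios of deposited RPKM values (vertical axes, from 0) by library in the 5 groups, filled for experiment 1 and open for experiment 2, with mean ± SD. The first panel shows summed HLA-B, HLA-C and HLA-E over NLRC5, at 28.1 to 36.2 in the JQ1 and I-BET151 libraries and 8.57 to 16.3 in all others. The second shows B2M over the summed chains and the third HLA-B over HLA-C, lowest in JURKAT at 0.509 to 0.712.

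DMSO was compared with untreated LOUCY to see what the vehicle does. At a limma adjusted p under 0.05, 0 of the 8 genes tested were called, against 0.0263% of genes called higher and 0.149% lower. At an unadjusted p under 0.05 the count was 4 of 8, all lower in DMSO, namely HLA-B, HLA-C, HLA-E and B2M, against 9.64% of all genes in either direction. HLA-C, HLA-E and B2M, which rose under the inhibitors relative to DMSO, thus had their lowest mean LOUCY levels in DMSO. HLA-C averaged 35.1 ± 6.43 RPKM in DMSO libraries (n = 4) and 47.9 ± 4.09 in untreated LOUCY (n = 6), a log2 difference of -0.46 (SE 0.11, limma adjusted p = 0.102). HLA-E, at 12.7 ± 0.911 RPKM in DMSO and 16.1 ± 0.889 in untreated LOUCY, did not overlap between these groups, with a log2 difference of -0.32 (SE 0.09, limma adjusted p = 0.175). B2M had a log2 difference of -0.20 (SE 0.09, limma adjusted p = 0.443) and HLA-B of -0.32 (SE 0.12, limma adjusted p = 0.338). The genes' median log2 difference was -0.18, and that of all genes -0.02.

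Levels under the inhibitors can be read beside untreated LOUCY, although no test of that pair was run. HLA-C averaged 48.0 ± 2.54 RPKM under JQ1, 47.9 ± 4.74 under I-BET151 and 47.9 ± 4.09 in untreated LOUCY, so these means differed by less than their SDs. HLA-B averaged 109.9 ± 8.81, 106 ± 15.6 and 110.1 ± 9.44 RPKM in the same order, and HLA-E 17.6 ± 0.72, 16.3 ± 2.02 and 16.1 ± 0.889 RPKM. B2M averaged 4396 ± 250.4 RPKM under JQ1, 4702 ± 324 under I-BET151 and 3605 ± 642 in untreated LOUCY, whose experiment 2 libraries, at 3444 to 4620 RPKM, overlapped the inhibitor libraries. NLRC5, at 5.65 ± 0.347 and 5.05 ± 0.868 RPKM under JQ1 and I-BET151 against 16.1 ± 2.29 in untreated LOUCY, lay below every untreated library, as did ERAP1, whose highest inhibitor library reached 6.78 RPKM and whose lowest untreated LOUCY library 7.68 RPKM.

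JQ1 and I-BET151, a thienotriazolodiazepine and a dimethylisoxazole quinoline, were given at different doses, so their values stand side by side. In the fitted difference 0 of the 8 genes were called by limma, with 0% of all genes called in either direction, and 0 had an unadjusted p under 0.05, against 4.65% of all genes. The 95% intervals of the 8 log2 differences lay between -0.30 and 0.51, which does not show that the compounds act alike. The largest were TAP1, at 0.22 (SE 0.14), and TAPBP, at 0.20 (SE 0.14), both with a limma adjusted p of 0.964.

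Each difference was also tested for a change between the experiments. In limma, 0 of the 8 genes had such an interaction at an adjusted p under 0.05 in any of the 5 comparisons, against 0.025% of genes for LOUCY against JURKAT, 0.00876% each for JQ1 against DMSO, I-BET151 against DMSO and DMSO against untreated LOUCY, and 0% for JQ1 against I-BET151. At an unadjusted p under 0.05 the count was 1 for LOUCY against JURKAT and 0 for the others, against 8.2% of genes for the lines, 3.49% for JQ1 and 2.73% for I-BET151 against DMSO, 4.1% for DMSO against untreated LOUCY and 2.86% for JQ1 against I-BET151. Each experiment holds 2 libraries of every treated group. Within experiment 1 alone 6 of the 8 genes were called for JQ1 and 6 for I-BET151, against 31.4% and 25.4% of all 10960 genes. Within experiment 2 alone 1 was called for each, NLRC5, against 3.55% and 4.14% of all 11024 genes. All 3 libraries of steep GC slope belong to experiment 2, and their part in that difference was not tested. In experiment 2 alone the log2 differences of JQ1 against DMSO were 0.58 for HLA-C, 0.48 for HLA-E, 0.49 for B2M and -0.58 for ERAP1, with limma adjusted p of 0.245, 0.284, 0.22 and 0.189. Those of I-BET151 against DMSO were 0.54 for HLA-C, 0.27 for HLA-E, 0.63 for B2M, -0.47 for TAPBP and -0.60 for ERAP1, with limma adjusted p of 0.248, 0.545, 0.0983, 0.393 and 0.152.

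The rest of the pathway was read from 6 lists, with 37 genes tested in each comparison. Their counts stand beside the shares of all genes called, which were 35.5% higher and 37.5% lower for LOUCY against JURKAT, 10.1% and 15.9% for JQ1 against DMSO, and 10.3% and 15.9% for I-BET151 against DMSO. Among immunoproteasome genes, whose subunits favour class I peptides, 3 of 5 were higher and 0 lower in LOUCY than in JURKAT. PSMB8, an immunoproteasome catalytic subunit, averaged 62.0 ± 9.92 RPKM in untreated LOUCY and 9.84 ± 1.67 in JURKAT, a log2 difference of 2.54 (SE 0.08, limma adjusted p = 3.99e-13), and PSMB9 had a log2 difference of 1.58 (SE 0.11). Under JQ1 0 of 5 were higher and 2 lower than in DMSO, and the counts were the same under I-BET151. Without the 3 libraries of steep GC slope, 4 of 5 were lower under JQ1 and 2 under I-BET151, against 21.2% and 18% of all genes. PSMB8 averaged 31.0 ± 0.878 RPKM under JQ1, 28.97 ± 5.72 under I-BET151 and 56.5 ± 7.17 under DMSO, with falls of 0.84 (SE 0.12) and 0.95 (SE 0.12) in log2 units at limma adjusted p of 3.43e-05 and 8.84e-06. PSME2, a proteasome activator subunit, fell by 0.33 (SE 0.09) under JQ1 and 0.36 (SE 0.09) under I-BET151. The 3 constitutive catalytic subunits ran the other way between lines, with 3 of 3 lower in LOUCY, among them PSMB5 at 134.8 ± 7.85 RPKM in untreated LOUCY and 323 ± 25.5 in JURKAT and PSMB7 with a log2 difference of -0.53 (SE 0.08). Deposited RPKM of PSMB8 and PSMB9 rests on lengths 9.03 and 9.02 times the GENCODE exon length, against 1 for PSMB5. Their levels can therefore not be set beside that of PSMB5. They fell under both inhibitors, 3 of 3 each, with PSMB5 and PSMB6 both at -0.45 under JQ1 and at -0.41 and -0.38 under I-BET151.

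Of 8 loading complex and endoplasmic reticulum helper genes, 4 were higher and 2 lower in LOUCY than in JURKAT, against 35.5% and 37.5% of all genes. PDIA3, a loading complex thiol oxidoreductase, had a log2 difference of 0.95 (SE 0.06) and TAPBPL, a tapasin relative that edits peptides, of 1.31 (SE 0.15), while the chaperone CANX (calnexin) stood at -1.07 (SE 0.08) and the translocon subunit SEC61A1 at -0.36 (SE 0.12). Under JQ1 0 of the 8 were higher and 5 lower than in DMSO, against 10.1% and 15.9% of all genes, and the counts were the same under I-BET151, against 10.3% and 15.9%. HSPA5, the endoplasmic reticulum chaperone BiP, averaged 127 ± 5.08 RPKM under JQ1, 120.3 ± 21.9 under I-BET151 and 183 ± 9.64 under DMSO, with limma adjusted p of 0.00163 and 0.000381. TAPBPL fell by 0.64 (SE 0.15) under JQ1, and CALR (calreticulin) by 0.61 (SE 0.13) under I-BET151. The list medians were -0.47 and -0.52, against all-gene medians of -0.01 and 0.00.

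Among 13 transcription factors that act at class I promoters, 7 were higher and 2 lower in LOUCY than in JURKAT, led by IRF2 (1.51, SE 0.08) and NFKB1 (1.30, SE 0.11) upward and NFYA (-0.67, SE 0.07) and RFX5 (-0.35, SE 0.09) downward on the log2 scale. All genes gave 35.5% and 37.5%. Under JQ1 1 of 13 rose and 1 fell, and under I-BET151 2 rose and 1 fell, near the all-gene shares of 10.1% and 15.9% and of 10.3% and 15.9%. With the 3 libraries of steep GC slope left out, 1 rose and 2 fell under JQ1, against 15.1% and 21.2%. STAT2, which carries the type I interferon signal together with IRF9, averaged 28.1 ± 2.16 RPKM under JQ1, 25.9 ± 2.03 under I-BET151 and 16.0 ± 0.866 under DMSO, with limma adjusted p of 1.37e-05 and 8.98e-05. IRF9 rose by 0.38 (SE 0.13, limma adjusted p = 0.0403) under I-BET151. IRF2 fell by 0.31 (SE 0.11) under JQ1 and 0.34 (SE 0.11) under I-BET151. The RFX and NF-Y subunits were among the genes not called under either inhibitor.

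Of 8 other class I chains and partners of B2M, 7 were in the table and 5 were tested in each fit. Between the lines 1 of 5 was higher and 2 lower in LOUCY, near the 35.5% and 37.5% of all genes: HLA-F (0.45, SE 0.12, on the log2 scale), CD1D (-4.86, SE 0.10), a lipid-presenting chain, and FCGRT (-1.41, SE 0.11), the neonatal Fc receptor. HLA-F, at most 0.816 RPKM in JURKAT, passed the filter only through LOUCY libraries. CD1D, at most 0.407 RPKM in untreated LOUCY, passed it only through JURKAT libraries. HLA-F did not pass the filter without the untreated LOUCY library of steep GC slope. Under JQ1 1 of 5 was higher and 1 lower than in DMSO, against 10.1% and 15.9% of all genes. Under I-BET151 0 were higher and 1 lower, against 10.3% and 15.9%. FCGRT fell under both inhibitors, averaging 1.82 ± 0.363 RPKM under JQ1, 2.38 ± 0.521 under I-BET151 and 4.13 ± 0.967 under DMSO, with limma adjusted p of 0.00124 and 0.0165. It rested on 14 to 58 reads in these libraries. Untreated LOUCY stood at 7.82 ± 1.78 RPKM, and DMSO against it gave a log2 difference of -0.78 (SE 0.16, limma adjusted p = 0.051). MICA, a stress-induced ligand of the natural killer receptor NKG2D, rose under JQ1, to 1.81 ± 0.296 RPKM against 1.01 ± 0.225 under DMSO (limma adjusted p = 0.00936). Among 10 class II genes and their regulator, 7 were in the table and only HLA-DMA, HLA-DMB and HLA-DQB1 were tested, with RPKM lengthened in the same way as above. All 3 were higher in LOUCY than in JURKAT, against 35.5% of all genes, HLA-DQB1 at 3.75 ± 0.519 RPKM in untreated LOUCY and 0.948 ± 0.163 in JURKAT. With JURKAT medians of 0.249, 0.0821 and 0.927 RPKM, all 3 needed LOUCY libraries to pass the filter. The filter thus favoured that direction, and the count gives no support for it. Of the untested genes, HLA-DOA had the higher mean in JURKAT, 0.3175 against 0.01745 RPKM, and CD74, HLA-DPA1 and HLA-DPB1 in untreated LOUCY. Under JQ1 HLA-DQB1 rose (0.45, SE 0.15) and HLA-DMB (-0.39, SE 0.12) and HLA-DMA (-0.35, SE 0.12) fell, and under I-BET151 HLA-DQB1 rose (0.44, SE 0.15) and 0 fell. HLA-DMA and HLA-DMB had medians of 0.655 and 0.735 RPKM under JQ1, against 1.23 and 1.38 under DMSO. Both needed untreated or DMSO libraries to pass the filter. It thus favoured a fall under JQ1, and these 2 calls give no support for one. Across the 6 lists limma called 0 of 37 genes for DMSO against untreated LOUCY and 0 of 37 for JQ1 against I-BET151. At an unadjusted p under 0.05 the counts were 5 and 1 of 37, against 9.64% and 4.65% of all genes, so they lie near the background.

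**Figure D5:**
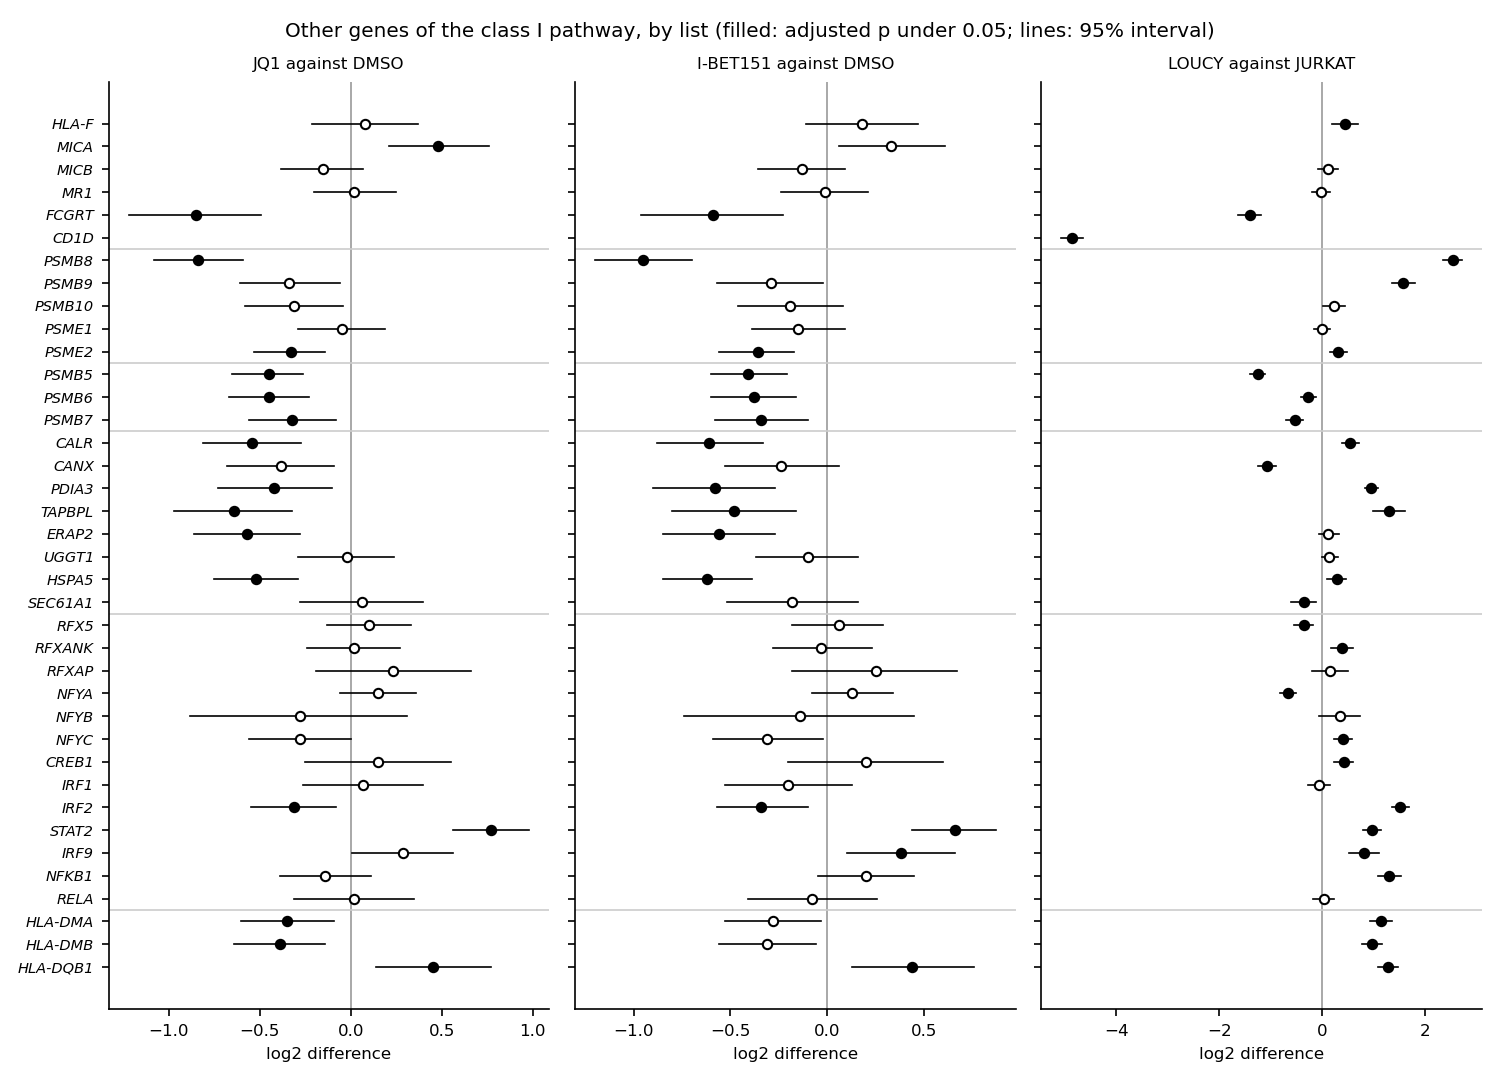
Differences of log2(RPKM + 1) (horizontal axes) of the tested list genes, grouped by grey lines into other class I chains, immunoproteasome, constitutive proteasome, loading helpers, transcription factors and class II, with 95% intervals. Filled points have a limma adjusted p under 0.05. PSMB8 is at -0.84 under JQ1, -0.95 under I-BET151 and 2.54 in LOUCY against JURKAT, while STAT2 is at 0.77, 0.66 and 0.97.

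The 8 genes did not vary as one across the 18 LOUCY libraries. With the mean of their standardised log2(RPKM + 1) values, which contains each of them, HLA-B had a Pearson r of 0.85, TAP1 0.82, HLA-C 0.75, TAPBP 0.73, HLA-E 0.57, ERAP1 0.44, NLRC5 0.42 and B2M -0.20. This is a description over 18 libraries that share groups, depth and GC slope. That mean was lowest in DMSO experiment 2 replicate 1, at -1.31, and I-BET151 experiment 2 replicate 1, at -1.11, both of steep GC slope. It was 0.05 in the third library of steep slope, untreated LOUCY experiment 2 replicate 2, and between -0.25 and 0.92 in the remaining 15. Transcript GC content was 57.5% to 62.7% for HLA-B, HLA-C, NLRC5, TAPBP and TAP1, 54.8% for HLA-E, 49.1% for TAP2, 40.6% for B2M and 39.7% for ERAP1. B2M was the highest of its group in that DMSO library and in the untreated library of steep GC slope. Outside these genes and lists, the nearest to the mean among 10660 genes were SLC22A18 (r = 0.95), SLC25A6 (0.94), RPS14 (0.92), REEP4 (0.92) and MPG (0.92), and the most opposed were KMT2E (-0.90), PHIP (-0.89), ZNF585A (-0.88), EDRF1 (-0.88) and CCNE2 (-0.88).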

How the data were processed

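The 24 libraries were made from polyadenylated RNA by Smart-seq2 and Nextera XT, per the labels' protocols, which mark no strand. The authors deposited RPKM values. The submitters' processing notes name build hg38, edgeR 3.10.5, STAR 2.5.1b, Subread 1.4.5-p1 and featureCounts. The sources used here give no gene annotation, gene lengths or handling of multiply matching reads. Sequences and gene positions are RefSeq GRCh38.p14, and exon lengths GENCODE v29 on the same build.

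The scale was log2(RPKM + 1), and a gene entered a fit if at least 4 of its libraries reached 1 RPKM. limma 3.58.1 (R 4.3.3) fitted groups with an additive experiment term and moderation with a mean-variance trend, two-sided, and a gene was called at a Benjamini-Hochberg adjusted p under 0.05 over all genes tested. Untreated LOUCY and JURKAT shared a fit of 12 libraries, and the other comparisons a fit of 18 LOUCY libraries. The script was tested on simulated data. Replicate libraries all differed by more than read-counting error (chi-square per degree of freedom 1.69 to 54.6). Whole reads were recovered from the steps of RPKM values for 100% of genes, within 0.01 reads, to give depth and implied lengths; the 103 to 218 reads behind TAP2 set its counting error, and depth covers counting error only.

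The members and lists were chosen with earlier results of these data known. List genes were named as up to 2 higher and 2 lower per list and comparison with the smallest adjusted p, and genes resembling the members by correlation. A gene of the lists is not reported here. Alternatives varied the pseudocount (0.1), the filter, library scaling, the experiment term, experiments, the replicate block, moderation, the libraries fitted and each library left out; removal of the GC trend and GENCODE gene lengths were added after seeing the data, as were list counts without the 3 libraries of steep GC slope.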

Additional observations from a re-analysis of the deposited data

Results flagged for a closer look

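In 45 groups of values (9 genes in 5 groups of libraries), 3 held a library far from the rest of its group by Dixon's 95% criterion, which chance meets in about 1 in 20 groups. HLA-C in DMSO experiment 2 replicate 1 stood at 25.54 RPKM, against 37.2 to 39.7 RPKM in the other DMSO libraries (gap over range 0.849). TAPBP in the same library stood at 10.37 RPKM, against 15.5 to 16.2 RPKM in the others (0.899). That library has a steep GC slope of -0.281, and its part was not tested. B2M in JQ1 experiment 2 replicate 1 stood at 4769 RPKM, against 4249 to 4317 RPKM in the other JQ1 libraries (0.864).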

How the results depend on the processing

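Experiment 2 alone gave 1 called gene (NLRC5) for JQ1 against DMSO and 1 (NLRC5) for I-BET151 against DMSO, against 5 and 6 over both experiments and 6 and 6 in experiment 1 alone, which has as many libraries; over all genes experiment 2 called 391 and 456 and experiment 1 3438 and 2787. The cause was not tested. In the other settings run the counts of called genes stayed within 1.5 times, and 0 called values changed sign. Leaving out each library gave 5 to 6 called genes for JQ1 and 4 to 6 for I-BET151. GC trend removal gave 7 and 7, with HLA-B and TAPBP added for JQ1 and HLA-B for I-BET151, and GENCODE gene lengths gave 8 for LOUCY against JURKAT, with TAP2 added. Over all settings NLRC5 lay between -1.39 and -1.16 for JQ1 and between -1.56 and -1.33 for I-BET151 (log2), and B2M between 0.48 and 0.56 and between 0.53 and 0.63. Replicate block: with replicate numbers as a block within experiments the counts were 7, 5, 6, 0 and 0, as without it. The 42 same-numbered pairs of libraries had correlations of -0.6 to 0.7, with 15 over 0.1, in deviations from the mean of their group and experiment. With 2 libraries per treated group and experiment these deviations mirror each other. The check can therefore not decide whether the numbers pair libraries. HLA polymorphism, 2 libraries per treated group and experiment, and reads per gene limit the levels of the heavy chains and TAP2.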
